A study of Rattus norvegicus with 12 samples.

Results

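The 69 genes described here encode proteins of the cytosolic ribosome. They were chosen by name: protein-coding entries called Rpl or Rps with a number and at most 1 letter of a, x or y, together with Rplp0, Rplp1, Rplp2 and Rpsa. The rule found 75 entries, and where a name repeated the entry with the highest mean was kept. This left 69 of 34525 genes in the table, of which 22250 were protein coding. Of the 69, 42 belong to the large subunit and 27 to the small subunit. Rpl10a and Rpl23a were listed at 0 in all 12 libraries, and the other 67 had a mean of at least 1 FPKM (a level corrected for gene length and sequencing depth) and were tested.

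RNA was sequenced from 2 regions of the rat brain in a study of chronic orofacial pain. The thalamus passes sensory input on to the cortex. The rostral ventral medulla, or RVM, lies in the brainstem and acts on pain transmission from above. In each region 3 samples were labelled 0.9% saline and 3 were labelled CFA, letters that in pain research mostly mean complete Freund's adjuvant, used to cause local inflammation. The labels give no strain, dose, site, time, age or sex, and do not say whether samples came from separate animals, so the p-values reflect the spread among these samples alone, which may be technical. The labels' extraction text speaks of retinas. The summed level of 12 retina markers was at most 17.7 FPKM in any library, and the highest single value was 16.7 FPKM for Pde6g in thalamus CFA sample 1. Hindbrain markers summed to 0.649 to 1.32 FPKM in thalamus and 165 to 220 in RVM. Thalamic markers summed to 659 to 1423 FPKM in thalamus saline, to 281, 841 and 715 in thalamus CFA and to 245 to 298 in RVM, so that thalamus CFA sample 1 lay within the RVM range for these markers.

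The ribosome joins a small subunit, which decodes the messenger RNA, to a large subunit, which forms the peptide bond. Their proteins are made in matched amounts, and ribosomal protein messenger RNAs of vertebrates begin with a run of C and T bases, the 5′ terminal oligopyrimidine (TOP) tract, through which the mTOR pathway controls their translation. Excess Rpl5 and Rpl11 bind Mdm2, which links ribosome assembly to p53.

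Runs of C and T bases were looked for around the annotated starts, at any position in the window. A run found so need not be the TOP tract. RefSeq promoters (build GRCr8) were found for 54 of the 69 members. Of these, 46 held an unbroken run of at least 8 C or T bases within 40 bases on either side of the annotated start, which is 85.2%, against 30.1% of 21842 protein-coding promoters. On the opposite strand, read as runs of A or G, the shares were 22.2% and 29.4%. At least 12 bases were found in 48.1% of the members and 6.74% of all. The large and small subunits had similar shares, 29 of 34 and 17 of 20. The windows below are shown for the 3 members that rose in thalamus with CFA and for 3 that were lower in thalamus than in RVM under both treatments. Capitals mark the longest C and T run. A match is a description of the letters and not a measured start of transcription.
Rplp0, chr12:46718375-46718404, minus strand: accgcaccgcaCTTCTCTCgccaggcgtcc
Rps2, chr10:14251824-14251853, plus strand: cagcgCCTCCCTCTTCTTTTTCTTCgggaa
Rpl10, chrX:157205840-157205869, plus strand: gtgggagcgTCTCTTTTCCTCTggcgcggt
Rpl36, chr9:1533748-1533777, plus strand: gcgcggcgtcgTTCTTCCTgtccggccgcc
Rpl36a, chrX:102059454-102059483, plus strand: ctgctctagCCTCTCTCTTTCTgagctggt
Rps28, chr7:15311311-15311340, minus strand: tgctcacgtgaCTCCTCTCCgctagatctc
The runs of these members were 8, 20, 13, 8, 13 and 9 bases long, in that order. Their first bases lay at −3, −19, −1, −21, 14 and 4 from the annotated start, where negative values lie before it. The Rpl36 run lay wholly before the annotated start, and the Rpl36a and Rps28 runs wholly after it.

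The tested members had a median mean level of 259 FPKM, with quartiles of 156 and 370. The highest were Rpl41, a very short basic protein of the large subunit, at 756 FPKM, Rps29 at 732 and Rplp1, an acidic protein of the stalk that recruits elongation factors, at 715. The lowest as listed were Rpl8 at 5.496 FPKM, Rpl13a at 9.95 and Rps6, the substrate of S6 kinase, at 15.7. Summed with other entries of the same protein, Rpl8 had a mean of 44.2 FPKM, with 157 in RVM CFA sample 3. Members were short, with a median gene length of 703 bases against 2227 over the genes that reached a mean of 1 FPKM. The within-group SD of log2(FPKM + 1) had a median of 0.11 over members and was above 0.3 in 8 of them.

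Ribosomal protein genes have many near-identical copies, and reads of a copy may be counted under another entry. A further 102 entries were matched to 45 members, 6 by symbol, 95 by description and 1, RGD1359290 for Rpl17, by hand after the data were seen. Of these, 58 had a mean of at least 1 FPKM. Rpl10a and Rpl23a, at 0 as listed, had means of 7.42 and 32.9 FPKM when summed with their copies. Summing each member with its copies lowered the within-group SD in 23 of the 45 and did not lower it in the rest. It was above 0.5 in 5 members summed and in 4 alone, and above 0.3 in 7 and 8. The summed counts include Rpl23a (0.53) and Rpl10a (0.43), which the counts alone leave out. Both had an SD of 0 alone because they were listed at 0, so summing could not lower it. For Rpl8 the within-group SD rose from 0.23 to 0.63. Rpl30, Rpl12 and Rpl17 traded level with a copy between libraries. Rpl17 was at 227, 304 and 204 FPKM in thalamus saline while its copy RGD1359290 was at 79.1, 7.61 and 71.3, and the sums were 306, 311 and 276. Rps27a, a fusion of ubiquitin and a small subunit protein, was at 134, 296 and 99.0 FPKM in thalamus saline, and its sum with the entry of the same symbol on chromosome 14 was 445, 438 and 452. Levels of these members alone are uncertain. Rplp2, the partner of Rplp1, was at 8.38, 76.3 and 140 FPKM in thalamus saline and at 10.4, 130 and 8.82 in thalamus CFA, and its spread stayed wide after summing (within-group SD 0.63 against 1.94 alone).

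**Figure D1:**
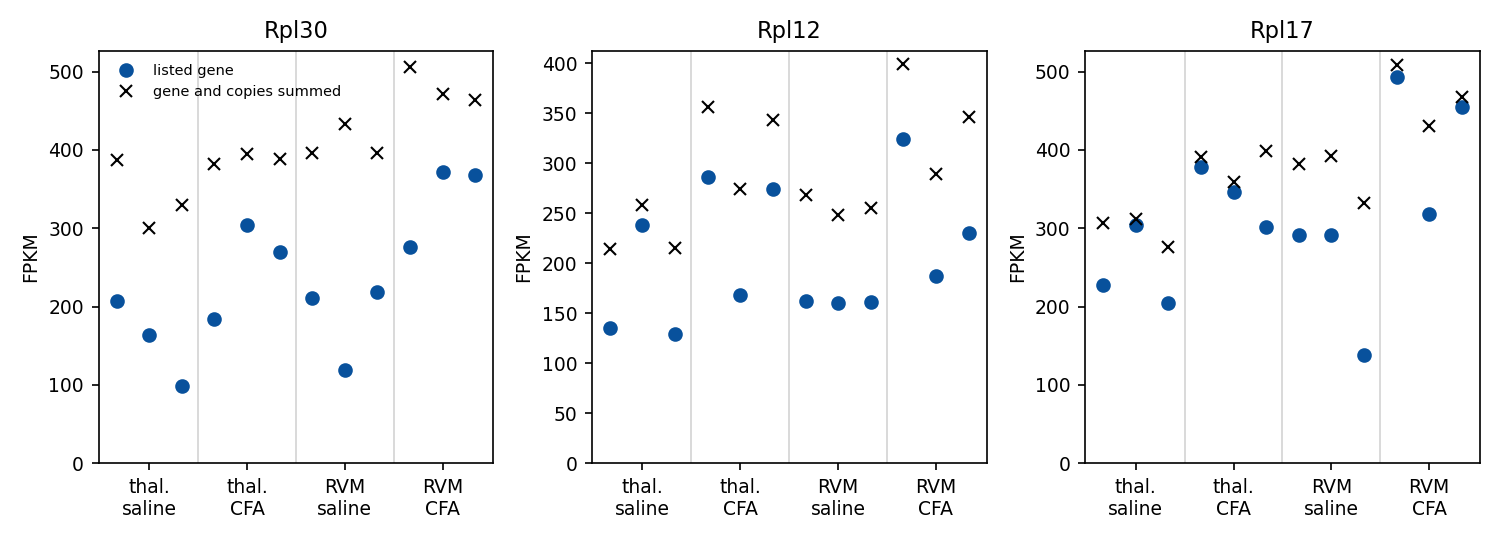
FPKM of Rpl30, Rpl12 and Rpl17 in the 12 libraries, in order of replicate within each group, for the listed gene (circles) and for the gene summed with its copies (crosses). The sums of Rpl17 in thalamus saline lie between 276 and 311 while the listed gene lies between 204 and 304.

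The libraries held 14.94 to 19.24 M recovered reads. Members took 1.18, 0.993 and 1.01% of reads in thalamus saline and 1.63, 1.39 and 1.53% in thalamus CFA. In the RVM they took 1.34, 1.30 and 1.25% with saline and 1.69, 1.45 and 1.63% with CFA. Every CFA library was above every saline library of its region. The ratio of large to small subunit reads was 1.496 to 1.63 over all 12 libraries. It was 1.61, 1.59 and 1.63 in thalamus saline and 1.58, 1.59 and 1.61 in thalamus CFA, and these groups overlapped. In bulk tissue, fewer cells of a type and less RNA per cell cannot be told apart.

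**Figure D2:**
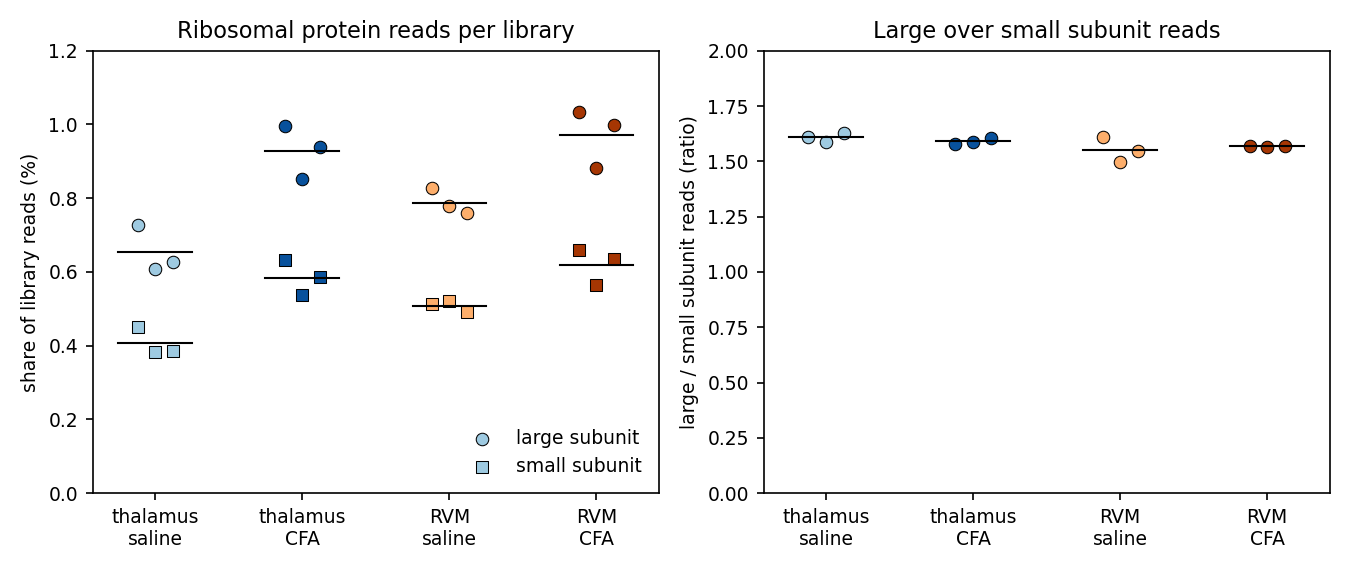
Left, share of each library's reads (%) in the large subunit (circles) and small subunit (squares) members; right, ratio of large to small subunit reads. Lines are means of 3 libraries. Both subunits are higher in CFA than in saline in each region, while the ratio lies between 1.496 and 1.63.

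The first comparison asked how CFA samples differed from saline samples in the thalamus. Rplp0, Rps2 and Rpl10 rose, and no member fell. Rplp0, the protein at the base of the acidic stalk (ENSRNOG00000001148, chromosome 12, 46791528 to 46794797 as the table lists it, build not given), was at 288, 270 and 266 FPKM in saline and at 524, 395 and 444 in CFA. All CFA values were above all saline values. Its log2 difference was 0.71 (SE 0.13, limma adjusted p = 0.0311). Rps2, at the entry of the messenger RNA channel, was at 195, 188 and 175 FPKM in saline and at 278, 277 and 262 in CFA. Its log2 difference was 0.55 (SE 0.086, limma adjusted p = 0.0208). Rpl10, which joins the large subunit late in assembly, was at 311, 321 and 296 FPKM in saline and at 435, 408 and 455 in CFA, a log2 difference of 0.48 (SE 0.090, limma adjusted p = 0.0402).

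The 3 calls are 3 of 67 members, or 4.48%, and 3.84% of all 14722 genes were called higher, so the share of calls was near the background in this fit. Of the 605 genes called in either direction, 76 had a mean under 50 reads, where the test made more false calls in simulated data. No tested member had so few. Of 67 members 45 had every CFA value above every saline value, and 12.2% of all genes did. The log2 difference was above 0 in 62 of 67 members and in 39.5% of all genes. The median was 0.31, a 1.24-fold difference, against −0.08 over all genes. It was 0.31 for the 40 large subunit members and 0.33 for the 27 small subunit members.

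Leaving out single thalamus libraries left 2 members called without CFA replicate 2 (2.99%), 1 without saline replicate 1, saline replicate 2 or CFA replicate 1 (1.49%), and 0 without saline replicate 3 or CFA replicate 3. Of all genes 2.97, 3.21, 2.11, 2.61, 2.04 and 2.93% were called higher in these fits, in that order. The share of members called was thus near or below the background in each. The median stayed between 0.28 and 0.38. Without CFA replicates 1 and 2 together 0 members were called and the median was 0.36. That fit assumes that the lone CFA library varies like the saline libraries. Without saline replicate 1 and CFA replicate 1 together 5 were called and the median was 0.35. The share depended on the setting. Rescaling each library to the same FPKM total called 17 members higher (25.4%, against 5.01% of all genes), limma-voom on recovered reads 12 (17.9%, against 4.46%) and a single model of all 12 libraries 31 (46.3%, against 7.47%). With quantile normalization 2 were called (2.99%, against 3.46%).

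**Figure D3:**
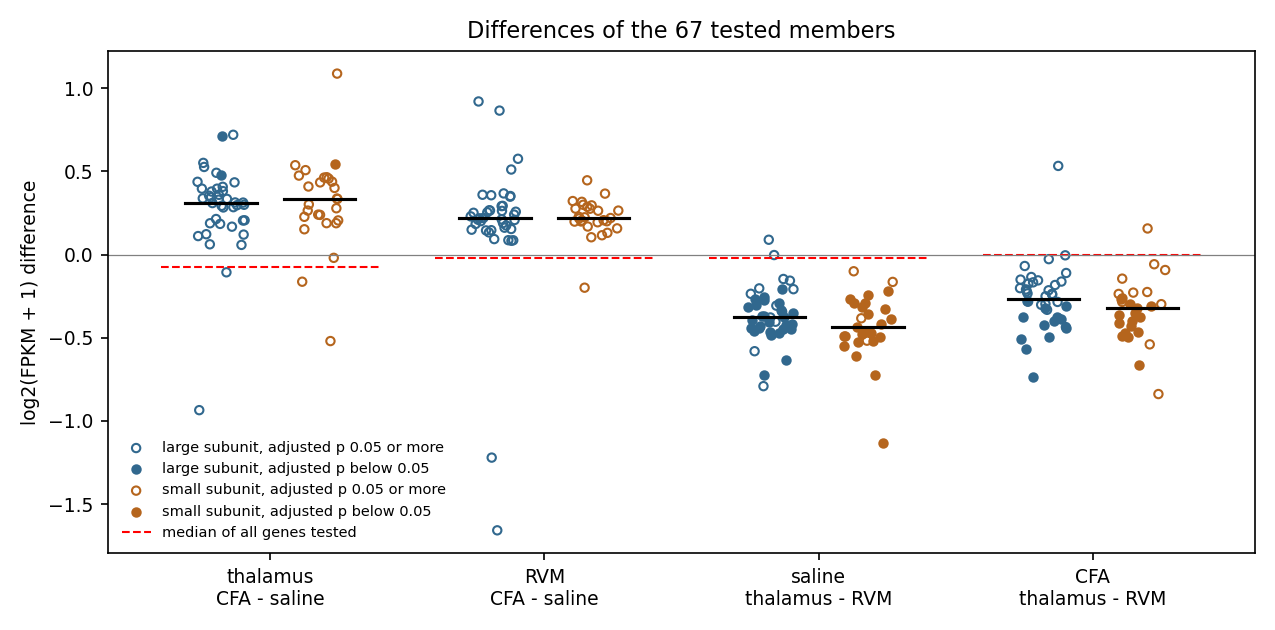
Difference in log2(FPKM + 1) of the 67 tested members in 4 comparisons, large subunit in blue and small subunit in brown, filled where the limma adjusted p was below 0.05. Black lines are medians of each subunit and red dashed lines medians of all genes. In thalamus the subunit medians are 0.31 and 0.33.

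The remaining members of the comparison varied in size. Rps4x, an X-linked small subunit protein, was at 128, 109 and 117 FPKM in saline and at 187, 155 and 173 in CFA (log2 difference 0.54, limma adjusted p = 0.0529). Rpsa, the laminin receptor, was at 279, 271 and 273 FPKM in saline and at 431, 333 and 414 in CFA (0.51, limma adjusted p = 0.0861). For both genes the groups did not overlap, and neither passed the test. Rpl5 had a log2 difference of 0.40 (SE 0.12), Rpl11 of 0.31 (SE 0.13), Rpl3, at the peptidyl transferase centre, of 0.35 (SE 0.12) and Rps3, at the messenger RNA entry, of 0.24 (SE 0.097). Rplp1 was at 0.36, Rpl39 at 0.53, Rpl41 at 0.29 and Rps29 at 0.21. Differences below 0 were found for Rplp2, Rps6, Rps19, Rpl7a and Rps21. Rps6 was at 5.28, 30.7 and 11.5 FPKM in saline and at 8.64, 7.85 and 8.88 in CFA. Its log2 difference was −0.52 (SE 0.54), and its single high saline library set the sign. Rps19 was at 73.7, 114 and 111 FPKM in saline and at 124, 42.8 and 125 in CFA, and 1 CFA library lay far below the others.

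Markers of other cell types were measured beside the members. The summed level of 14 microglia markers was 224 to 272 FPKM in thalamus saline and 1624 to 2064 in thalamus CFA, and 13 of the 14 were called higher. The summed level of 12 neuron markers was 2975 to 4173 in saline and 1937 to 2972 in CFA, and 0 of 12 were called. The summed level of choroid plexus and ependyma markers was 56.0 to 86.3 in saline and 10893, 2672 and 62.0 in CFA, and 0 of the 7 tested were called. Mitochondrial genes took 9.48 to 9.88% of reads in saline and 6.95 to 8.28% in CFA. The part of microglia, neuron, choroid plexus and mitochondrial levels in the members' difference was not tested.

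**Figure D4:**
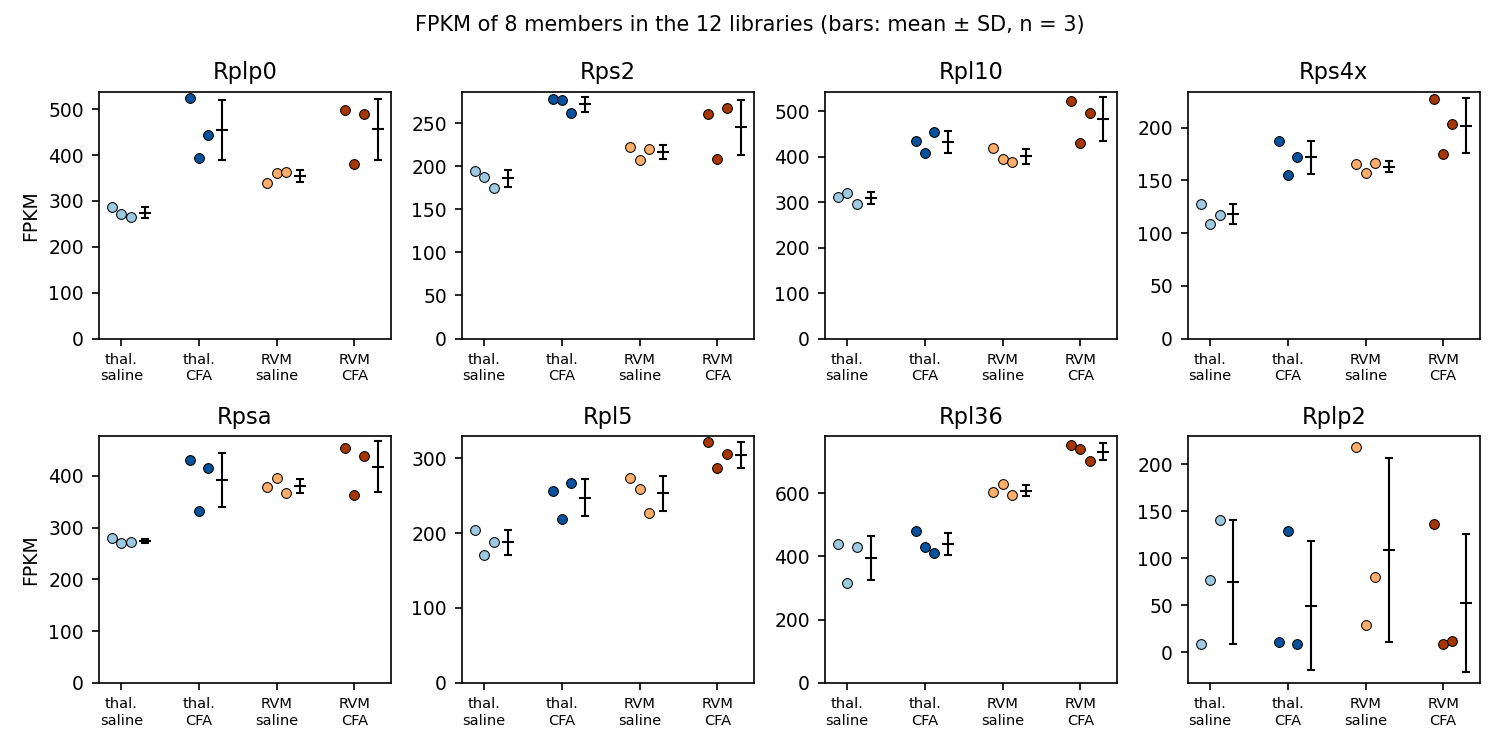
FPKM of 8 members in the 12 libraries, with the mean and SD of 3 samples beside the points. Rplp0, Rps2 and Rpl10 lie higher in every thalamus CFA library than in any thalamus saline library, and Rplp2 varies widely within each group.

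The second comparison asked the same in the RVM. No member passed the test, and no gene of 14289 was called by limma, so the background was 0%. At an unadjusted p below 0.05, 44 members were higher, which is 65.7%, against 5.93% of all genes. limma-voom on recovered reads called 0 as well, with 54 members (80.6%) and 7.61% of all genes higher at that level. Of 67 members 41 had every CFA value above every saline value, and 7.27% of all genes did. The log2 difference was above 0 in 64 members and in 43.9% of all genes. The median was 0.22, a 1.16-fold difference, against −0.02 over all genes, and was 0.22 for each subunit. Microglia markers summed to 240 to 313 FPKM in RVM saline and to 446 to 1571 in RVM CFA, with differences above 0 in 14 of 14. Oligodendrocyte markers summed to 23877 to 27021 FPKM in saline and to 17621 to 18673 in CFA, with differences above 0 in 0 of 10. None of either list was called, and their part in the members' difference was not tested.

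Among the members with the smallest unadjusted p were Rpl9 and Rpl21, both of the large subunit. Rpl9 was at 176, 172 and 160 FPKM in RVM saline and at 215.7, 205.9 and 200.9 in CFA, a log2 difference of 0.29 (SE 0.057, limma adjusted p = 0.242). Its groups did not overlap. Rplp0 was at 339, 361 and 363 FPKM in saline and at 498, 380 and 489 in CFA (0.35, limma adjusted p = 0.264). Its second CFA library was the lowest of the 3. The same library had the lowest share of member reads of the RVM CFA group and the lowest summed microglia markers, 446 FPKM against 1571 and 1356. Without it, 8 members were called higher (11.9%), and so were 2.78% of 14264 genes. Rplp2, Rpl7a and Rps6 had differences below 0, with SEs of 1.13, 0.77 and 0.51. Rpl7a was at 77.2, 12.8 and 13.6 FPKM in saline and at 3.96, 13.6 and 16.2 in CFA, and summed with its copies the difference was 0.31 rather than −1.22.

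The difference of the CFA effects between regions was tested as an interaction over all 12 libraries, which the treatment comparisons share. No member was called, and limma called no gene of 13738, so the background was 0%. At an unadjusted p below 0.05, 3 members were higher, Rps2, Rpl27 and Rpsa, which is 4.48% against 5.24% of all genes, and limma-voom called 0 with 12 higher (17.9%, against 8.41%). The median difference was 0.11 over members and −0.05 over all genes. Over the 67 members the log2 differences of the 2 regions, whose libraries are separate, had a Pearson r of 0.71 and a Spearman rho of 0.44, as a description. Over the 59 members with a within-group SD of at most 0.3, r was 0.32. Members share copies and counting, and are not independent.

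The third comparison set thalamus against RVM in saline samples. Here 50 of 67 members were lower in thalamus by limma at an adjusted p below 0.05, and none was higher, while 22.7% of all 14396 genes were called lower. The called members were 27 of the 40 tested of the large subunit and 23 of the 27 tested of the small subunit. The median log2 difference was −0.39 over members and −0.02 over all genes, at −0.37 for the large and −0.44 for the small subunit. Rpl36 was at 441, 316 and 430 FPKM in thalamus and at 603, 630 and 595 in RVM (log2 difference −0.64, limma adjusted p = 0.00958). Rpl36a was at 88.1, 76.3 and 77.1 FPKM in thalamus and at 136, 135 and 129 in RVM (−0.72, limma adjusted p = 0.000746). Rps28 was at 116, 93.0 and 97.5 FPKM in thalamus and at 148, 197 and 164 in RVM (−0.73, limma adjusted p = 0.00504). For these 3 genes the regions did not overlap. Rps27a, whose entries trade reads, had a difference of −1.13 (limma adjusted p = 0.0466), and of −0.42 when both entries were summed. The count of members called was 32 (47.8%) without RVM saline replicate 1 and 32 without RVM saline replicate 2, against 16.8% and 16.6% of all genes. It was 15 (22.4%, against 14.0%) with each library set to the same FPKM total and 31 (46.3%, against 17.97%) with limma-voom. With quantile normalization it was 11, or 16.4%, below the 24.9% of all genes. The median was below 0 in each. Oligodendrocyte markers summed to 5181 to 8057 FPKM in thalamus and to 23877 to 27021 in RVM, with 10 of 10 called lower. Astrocyte markers summed to 2949 to 3268 and to 5690 to 6007 FPKM, with 6 of 12 called lower. The part of both in the members' difference was not tested.

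In CFA samples 29 of 67 members were lower in thalamus, and 18.1% of all 14787 genes were called lower. The median was −0.30 over members against 0.00 (−0.0024) over all genes, at −0.26 for the large and −0.32 for the small subunit. Rpl36 was at 480, 430 and 412 FPKM in thalamus and at 753, 742 and 702 in RVM (−0.73, limma adjusted p = 0.00271). Rps21 had a difference of −0.66 (limma adjusted p = 0.00828). Rplp0 had a difference of −0.0042 (SE 0.15) and Rps2 of 0.16 (SE 0.11). The count called lower was 9 without thalamus CFA replicate 2 (13.4%, against 13.1% of all genes) and 7 without RVM CFA replicate 1 (10.4%, against 10.7%), so the members' share was near the background in these fits. It was 19 without RVM CFA replicate 2 (28.4%, against 10.5%) and 10 without RVM CFA replicate 3 (14.9%, against 11.1%). The direction depends on the scaling. With each library set to the same FPKM total the median of all genes moved from −0.0024 to 0.29 and that of the members to 0.050, so that the members lay −0.24 below all genes, and 1 member was called lower and 1 higher. With quantile normalization the members were at 0.050 and all genes at −0.05, so that the members lay 0.098 above. The FPKM totals were 444470 to 464865 in thalamus CFA and 562774 to 595130 in RVM CFA. Oligodendrocyte markers summed to 5000 to 5922 FPKM in thalamus CFA and to 17621 to 18673 in RVM CFA, and their part in the difference was not tested.

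Other genes of translation were described from lists. Of 7 elongation factors tested none was called in either CFA comparison, with medians of 0.21 in thalamus and 0.08 in RVM. Of 27 initiation factors and partners 1 rose in thalamus, Pabpc1, the poly(A) binding protein, itself a TOP messenger RNA (log2 difference 1.01, SE 0.12, limma adjusted p = 0.00626), and the median of the list was −0.05. Of 7 other TOP genes 1 rose in thalamus, Vim, an intermediate filament protein of astrocytes and vessels (2.39, limma adjusted p = 0.0264), and the median was 0.23. Of 28 ribosome assembly genes none was called in thalamus, with a median of −0.09. Fbl, the methyltransferase of ribosomal RNA, had the smallest p at 0.37 (limma adjusted p = 0.162). Of 17 genes of mTOR and Myc signalling none was called, with a median of −0.13, and Myc was at 0.90 (limma adjusted p = 0.0503). Of 11 genes of ribosome stress and rescue none was called, with a median of −0.14. Of 70 mitochondrial ribosomal proteins none was called in thalamus, 10 had a difference above 0 and the median was −0.14. Between regions in saline, 41 of these 70 were called lower in thalamus and 1 higher, with a median of −0.32. In CFA samples 48 were lower and 0 higher, with a median of −0.45. The 7 other TOP genes had 5 lower in saline and 2 in CFA, and 0 higher. All genes had 22.7 and 18.1% called lower. The mTOR and Myc list had 7 of 16 higher in saline and 2 of 17 in CFA, and 0 lower. Among paralogs Rps27l, a relative of Rps27 induced by p53, rose in thalamus (0.95, SE 0.17, limma adjusted p = 0.0321). Of the ribosomal proteins under other names, Rack1, a scaffold on the small subunit, had a difference of 0.40 (limma adjusted p = 0.127) in thalamus and Fau varied widely (0.25, SE 0.75).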

How the data were processed

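Per the file headers, the values the authors deposited are FPKM for 12 libraries in 1 table, with gene length, coordinates and biotype. For aligner, counting tool and genome build: not given in the sources used here. FPKM times gene length gave whole reads within 0.01 for 100% of values, which set the depth. The limma package 3.58.1 (R 4.3.3, with an intensity trend) was fitted to log2(FPKM + 1) of genes whose mean reached 1 FPKM, with Benjamini-Hochberg adjustment over all genes tested and a threshold of 0.05. Each comparison used only its own groups of 3 samples, and the difference of CFA effects used all 12. Tables were handled with Python 3.11.15. Log2 differences understate the change of low genes.

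The members, gene lists and tests were chosen with earlier results of these data known. Genes named were those called, up to 6 per direction by size, filled to 3 by the smallest unadjusted p, the 3 highest and lowest in level, and a set of stalk, assembly and signalling members. Rps14, Rpl22 and Rpl38 are not analysed here under those names, and 1 gene that the rule took is not reported here. Other settings were another pseudocount, no filter, a filter at 5 FPKM, 3 other scalings, limma-voom on recovered reads, a replicate block, a joint model of all libraries, and libraries left out. Summing copies and a total without mitochondrial genes were added after seeing the data.

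The fits were tested on simulated data. The first criterion, a limit on false calls over all genes, was not met, because genes with few reads gave more false calls than the threshold implies. The criterion was then changed, after that outcome was seen, to genes with at least 50 reads, and it was met there. Every tested member has a mean of at least 72.6 reads. Genes under 50 reads were 76 of the 605 called and 1619 of the 14722 tested for CFA in thalamus. Between regions in saline they were 374 of the 6523 called and 1458 of the 14396 tested. The share of false calls in the measured data was not tested, for the members or for all genes.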

Additional observations from a re-analysis of the deposited data

How the results depend on the processing

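Median changes kept their sign under every alternative run except in thalamus against RVM with CFA, where they were 0.050 with the same FPKM total and 0.050 (0.0496) with quantile normalization. They were −0.085 with limma-voom and −0.070 with the total without mitochondrial genes. For CFA in thalamus the members called, with the share of all genes called higher in the same fit, were 1 with no filter (2.36%), 17 with the same FPKM total (5.01%), 7 with median-of-ratios scaling (4.26%), 12 with limma-voom (4.46%), 31 with all 12 libraries in a single model (7.47%), 5 with copies summed (3.89%), 5 with the total without mitochondrial genes (4.27%), 0 without CFA 1 and 2 (0.448%) and 5 without saline 1 and CFA 1 (3.34%). Its median was 0.48 with the same FPKM total, 0.43 with quantile normalization, 0.50 with limma-voom and 0.40 with the total without mitochondrial genes, and the large minus small difference was −0.085 with quantile normalization. In thalamus against RVM in saline 15, 11, 31 and 23 members were called with the same FPKM total, quantile normalization, limma-voom and the total without mitochondrial genes, against 14.0, 24.9, 17.97 and 15.2% of all genes called lower, with medians of −0.20, −0.19, −0.31 and −0.23. In CFA 19 were called lower with no filter (10.8% of all genes lower). Under the same 4 settings 2, 1, 5 and 5 were called in either direction. There, 6.93, 16.7, 9.76 and 9.58% of all genes were called lower. These counts and shares are not like for like, since with the same FPKM total 1 of the 2 members was higher. The median of the difference of CFA effects was 0.27, 0.24 and 0.23 with the same FPKM total, quantile normalization and limma-voom. Leaving out 1 library gave 0 to 2 members called for CFA in thalamus, 0 to 8 in RVM, 32 to 55 between regions in saline, 7 to 28 in CFA and 0 for the difference of effects. In these fits 2.04 to 3.21% of all genes were called higher for CFA in thalamus and 0 to 2.78% in RVM. Between regions in saline 16.6 to 25.2% were called lower. For regions with CFA, shares of some of these fits are given above. That of the fit with 28 calls is not given, so its count cannot be set against a background. The medians then ran from 0.28 to 0.38, 0.18 to 0.26, −0.45 to −0.36, −0.34 to −0.24 and 0.056 to 0.14, and the large minus small differences from −0.023 to 0.0052, −0.026 to 0.011, 0.040 to 0.10, 0.027 to 0.090 and −0.063 to 0.039. The causes were not tested. The 8 calls in RVM came without CFA replicate 2, the 7 and 9 calls between regions with CFA without RVM CFA replicate 1 and thalamus CFA replicate 2.

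Single members that changed sign, beside leave-one-out extremes of −1.07 for Rps6 in thalamus, −0.80 for Rps6 in RVM and 0.87 for Rpl7a between regions with CFA, were Rps19 in thalamus (0.0024 with the same FPKM total, 0.0097 with quantile normalization, 0.019 with limma-voom, 0.013 with copies summed, 0.34 without CFA replicate 2 and 0.35 without CFA 1 and 2), Rps6 (0.093 in thalamus without saline replicate 2, and 0.0078, 0.20 and 0.0023 in RVM without saline 2, CFA 2 and CFA 3), Rpl7a with copies summed (0.31 in RVM, −0.42 between regions with CFA, and −0.024 without RVM CFA replicate 1), Rpl17 (−0.31 between regions in saline and 0.019 for the difference of effects with copies summed, and −0.075 and −0.27 without thalamus saline 2 and RVM saline 3) and Rpl37a (0.0037 for the difference of effects with the same FPKM total).

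With the replicate number as a replicate block 10 members were called for CFA in thalamus (14.9%, against 5.13% of all genes higher). In RVM 0 members and 0 genes were called. Between regions 43 members were called in saline (64.2%, against 19.9% of all genes lower). In CFA 24 were called with the block. The share of all genes in that fit is not given here, so the 24 cannot be set against a background. The fit without the block called 29 of 67 members lower, against 18.1% of all genes. Same-numbered libraries are not said to be paired. Their deviations from the group means correlated at 0.36, 0.063 and 0.27 between CFA and saline in thalamus. In RVM the values were −0.028, −0.0050 and −0.010. Between thalamus and RVM they were 0.11, 0.020 and −0.014 in saline and 0.20, 0.076 and −0.037 in CFA. There, replicates 1 and 2 correlated best with their own number under both treatments. The same held between CFA and saline in thalamus, but not in RVM. These values cannot decide whether same-numbered samples of the 2 regions share an animal. The numbers were not taken as pairs.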
